A study of Mus musculus with 24 samples.

Results

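Potassium channel genes were followed through the hypothalamus, pituitary, ovary and uterus of mated female mice. They were taken as every gene symbol that consists of Kcn, a subfamily code in letters and a number. The rule found 92 genes among the 24195 symbols of the count tables, and all 92 matched a gene of the mouse annotation. They belong to 20 subfamilies in 5 classes, which follow gene families and not what opens each channel. These are 40 voltage-gated alpha subunits, 8 genes of the calcium- and sodium-activated family, 15 inward rectifiers, 14 tandem-pore channels and 15 accessory subunits. A further 6 symbols that begin with Kcn, Kcnd3os, Kcne1l, Kcnmb4os1, Kcnmb4os2, Kcnq1ot1 and Kcnrg, were outside the rule.

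Messenger RNA was measured by bulk RNA sequencing in whole tissues of C57BL6 females labelled as Kdm4a knockout (KO) or wild type (WT), with 3 libraries of each genotype in each of 4 tissues, 24 in all. Kdm4a encodes a histone demethylase. All females were virgins of 8 to 10 weeks when housed for mating, they were mated naturally to stud males at 2 females per male, and all tissues were taken at 2.5 days post coitus, so that both genotypes share strain, mating and stage. The labels call the libraries biological replicates, but the allele, the deleted part of Kdm4a and the way WT and KO females were matched were not stated in the labels.

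A potassium channel lets potassium ions leave or enter a cell through a pore whose selectivity filter is built from a short conserved stretch of each pore subunit. Voltage-gated channels open on depolarisation and end the action potential, while calcium- and sodium-activated channels couple the outflow to the ions that entered during it. Inward rectifiers and tandem-pore channels set the resting potential, and accessory subunits change the gating or the traffic of the pore subunits. In the reproductive axis these channels are known for shaping the firing of hypothalamic neurons, hormone release from pituitary cells, potassium uptake by astrocytes and the contraction of uterine and vascular muscle.

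The filter signature is threonine, any residue, glycine, then tyrosine or phenylalanine, and glycine. It was searched in frame in the longest coding sequence of each gene, on the coding strand only, and 66 of the 92 genes (71.7%) held it, against 146 of 20340 other genes of the tables with a coding sequence (0.718%). The number of copies followed the class. None of the 15 accessory genes held it, 11 of the 14 tandem-pore genes held it 2 times and the other 3 held it once, and 14 of 15 inward rectifiers and 33 of 40 voltage-gated genes held it once. The 7 voltage-gated genes without it were all of the Kcnh subfamily, and the 3 activated-channel genes without it were Kcnn1, Kcnn2 and Kcnn3. These are statements on the letters searched, not on the ions that pass.
The stretches below come from genes that led a tissue or a genotype comparison, 1 each of the tandem-pore, voltage-gated and sodium-activated kinds, with the 15 bases of the signature in capitals and 15 bases on either side, 5′ to 3′ on the coding strand (GENCODE M21, GRCm38).
Kcnk3, second copy, chr5:30622187-30622231, plus strand: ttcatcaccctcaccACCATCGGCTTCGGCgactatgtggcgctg
Kcna2, chr3:107105209-107105253, plus strand: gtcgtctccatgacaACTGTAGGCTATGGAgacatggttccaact
Kcnt1, chr2:25894352-25894396, plus strand: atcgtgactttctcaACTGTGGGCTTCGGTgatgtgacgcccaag
Kcna2 had the tyrosine codon TAT at the fourth codon of the signature, while Kcnk3 and Kcnt1 had the phenylalanine codon TTC there.

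Library totals were 13201596 to 23865382 counts. CPM is the count scaled to a common library size of 1000000 by TMM, with factors from all 24 libraries. Levels of different genes were compared in TPM, which divides by exon length, and 1 gene was compared between tissues in CPM. Kdm4a separated the genotypes in the uterus only, at 58.8, 59.1 and 64.0 CPM in KO-labelled libraries against 89.5, 88.7 and 78.9 CPM in WT libraries; in the other 3 tissues the groups overlapped, and the libraries are therefore called KO-labelled. In each tissue 1 KO-labelled library lay apart along the first principal component (ovary 2, uterus 1, pituitary 1 and hypothalamus 2). Summed markers placed the tissues as labelled: neuron markers reached 4053 to 5811 CPM in KO-labelled and 5645 to 6654 CPM in WT hypothalami, and smooth muscle markers 6323 to 11413 CPM in KO-labelled and 8020 to 10869.5 CPM in WT uteri.

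The hypothalamus had the widest set of the 92 genes. At a mean of at least 1 CPM, KO-labelled libraries held 75 of the genes in the hypothalamus, 60 in the pituitary, 46 in the ovary and 46 in the uterus, and WT libraries held 75, 62, 42 and 46 in the same order of tissues. In WT, 27 genes passed 1 CPM in all 4 tissues. A further 11 passed it in the hypothalamus alone, among them Kcnv1, a subunit that forms no channel by itself, and Kcnq3, a subunit of the M current. Outside the hypothalamus 1 gene in each tissue passed it there alone: Kcnj1, the renal outer medullary channel, in the pituitary, Kcne2, a small accessory subunit, in the ovary, and Kcnn4, the intermediate-conductance calcium-activated channel, in the uterus. The Kcnj1 mean rested on 1 library, with 0.328, 0.471 and 0.312 CPM in KO-labelled and 3.24, 0.814 and 0.586 CPM in WT pituitaries. Kcnk16 had 0 counts in all 24 libraries, and Kcna7, Kcna10, Kcne1, Kcng3, Kcnk7, Kcnk15, Kcnk18 and Kcnmb3 stayed below a mean of 1 CPM in every WT tissue.

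**Figure D1:**
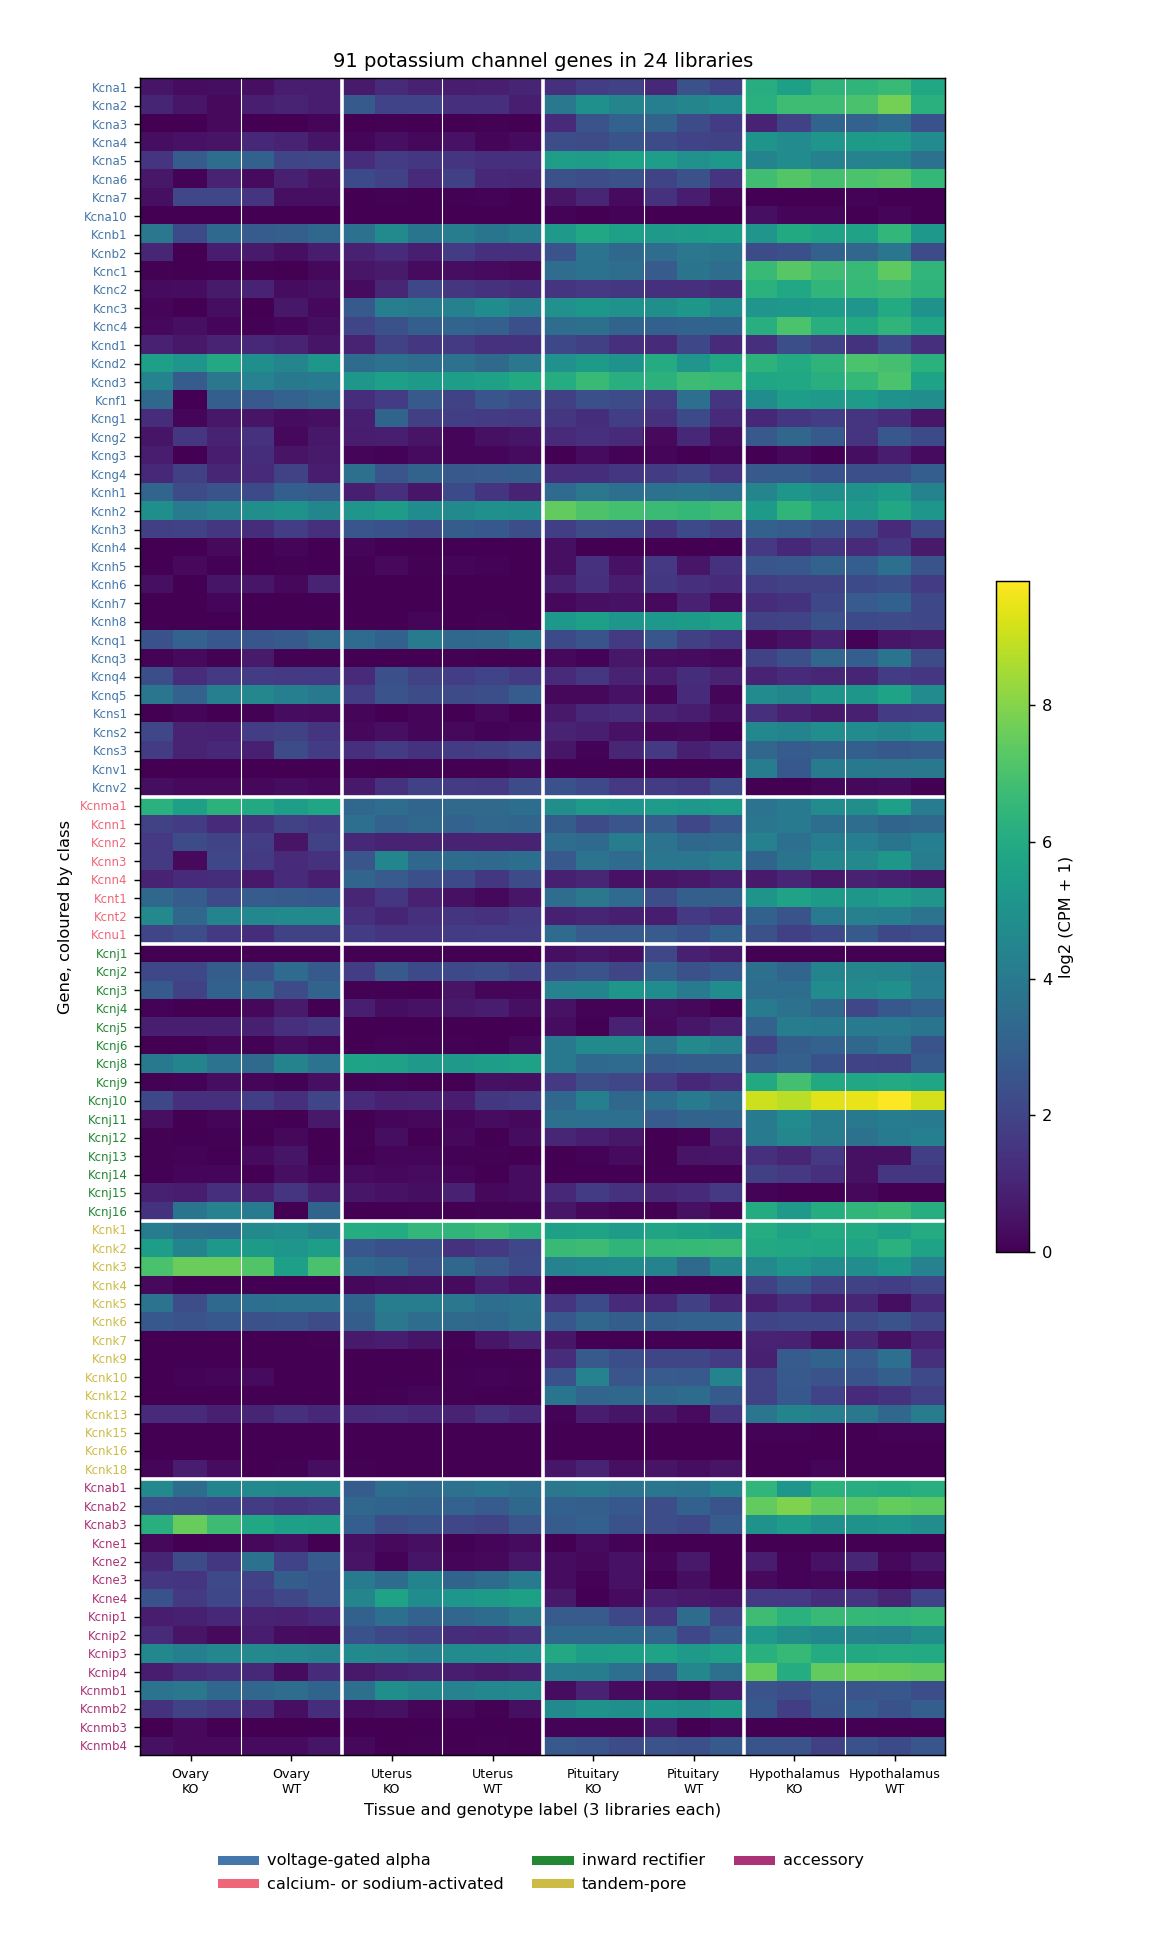
Level of 91 of the 92 genes (rows, grouped by class) in each of the 24 libraries (columns, KO-labelled left of WT in each tissue), as log2 of CPM plus 1. The hypothalamus columns are the brightest for most rows, while Kcnk3 and Kcnab3 are brightest in the ovary, Kcne4 and Kcnj8 in the uterus, and Kcnh8 in the pituitary.

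The hypothalamus was the tissue of the highest WT level for 50 of the 83 genes that reached 1 CPM somewhere (60.2%), against 32.3% of all genes at that level. The uterus was highest for 14 of the genes, the pituitary for 14 and the ovary for 5. The KO-labelled libraries gave the same highest tissue for 78 of the 83. These shares describe whole tissues, in which fewer cells of a type and less RNA per cell cannot be told apart.

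Among tissues, levels were compared with edgeR's quasi-likelihood test over the 12 WT libraries. The filter on low counts kept 82 of the 92 genes, and 81 of them differed among tissues, against 93.4% of all genes tested; the exception was Kcnd1, a Kv4 subunit, at 1.86 to 2.26 CPM in the uterus, the pituitary and the hypothalamus and 0.836 CPM in the ovary. A gene kept by the filter for its level in 1 tissue was bound to differ, so the counts that follow are descriptions. Each tissue was set against the mean of the other 3 tissues on the log2 scale, which a tissue near 0 counts pulls down. In the hypothalamus 60 of the 82 were higher (all genes 36.6%) and 8 were lower (35.3%). In the pituitary 37 were higher (32.9%) and 18 lower (27.5%). In the ovary 16 were higher (30.8%) and 42 lower (29.8%), and in the uterus 18 were higher (38.1%) and 45 lower (31.8%). The median log2 difference of the tested members was 2.73 in the hypothalamus, 0.36 in the pituitary, -1.31 in the ovary and -1.60 in the uterus, where the medians over all genes were -0.04, 0.01, -0.04 and 0.07. The pituitary split depended on the scaling: with library totals and no scaling factors, 24 were higher and 31 lower, and the median of all genes moved to -0.77. Summed pituitary endocrine markers reached 456296 to 688373 CPM in the WT pituitaries on the TMM scale, and their part in this shift was not tested. The ovary gave 20 higher and 37 lower, the uterus 21 and 38, and the hypothalamus 62 and 8 under that scaling.

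The makeup by class differed between tissues. Tandem-pore genes made up 35.7 ± 2.35% of the summed TPM of the 92 genes in KO-labelled and 36.9 ± 5.28% in WT ovaries, 31.3 ± 3.97% and 33.2 ± 3.33% in uteri, 24.8 ± 0.938% and 25.6 ± 0.711% in pituitaries, and 9.73 ± 0.390% and 8.76 ± 1.33% in hypothalami (KO-labelled, then WT; SD, n = 3). Voltage-gated alpha subunits were the largest class by mean share in the pituitary, at 45.0 ± 0.404% in KO-labelled and 44.4 ± 0.598% in WT libraries, and in the hypothalamus, at 34.0 ± 3.67% in KO-labelled and 33.3 ± 3.76% in WT libraries. Inward rectifiers took 28.7 ± 1.88% in KO-labelled and 31.7 ± 0.876% in WT hypothalami, and 14.1 ± 2.67% in KO-labelled and 12.9 ± 0.696% in WT uteri. The widest difference between genotypes was that of accessory genes in the ovary, 34.8 ± 8.19% in KO-labelled and 28.1 ± 1.84% in WT libraries, within the spread of the KO-labelled libraries.

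**Figure D2:**
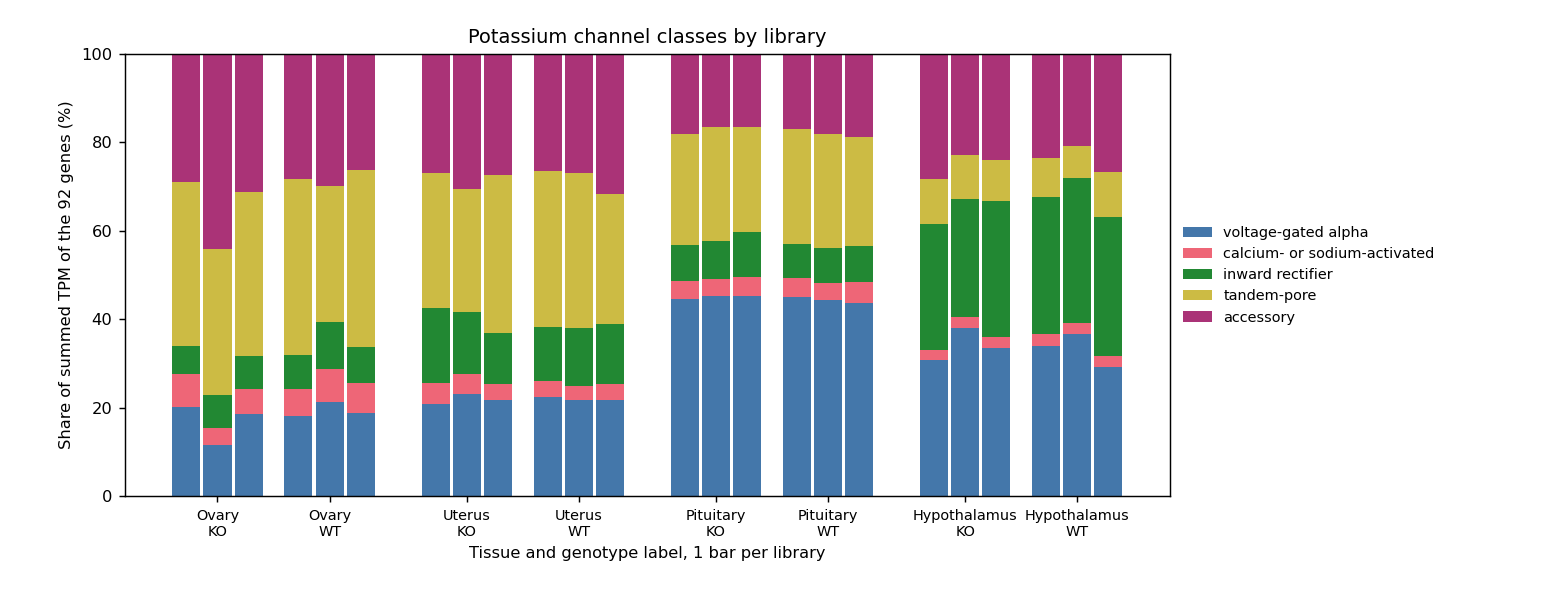
Share of each channel class in the summed TPM of the 92 genes, 1 bar per library, KO-labelled left of WT in each tissue. Voltage-gated genes fill about equal parts of all 6 pituitary bars, inward rectifiers are widest in the hypothalamus, and the tallest accessory part is that of KO-labelled ovary library 2.

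Among voltage-gated alpha subunits, the calls differed by subfamily. The shares of all genes called higher or lower in each tissue are those given above. All 6 tested Kcna genes, the Kv1 channels of axons, were higher in the hypothalamus and lower in both ovary and uterus, and 4 of the 6 were also higher in the pituitary. Kcna5 was highest in the pituitary, at 37.1 CPM in WT against 17.4 CPM in the hypothalamus. The 4 Kcnc genes, the Kv3 channels of fast-firing neurons, were all lower in the ovary and all higher in the hypothalamus, while 3 were also higher in the pituitary and 2 in the uterus; Kcnc1 averaged 121 ± 29.99 CPM in KO-labelled and 117 ± 42.3 CPM in WT hypothalami (SD, n = 3 each). Of the 8 tested Kcnh genes, the EAG, ERG and ELK channels, 6 were higher in the pituitary and 6 in the hypothalamus, and none was higher in the ovary. Kcnh7 was counted as higher in the pituitary at 0.440 CPM, with 0 counts in WT ovary and uterus and 5.59 CPM in the WT hypothalamus. With means below the level of 3 counts raised to that level, its log2 difference in the pituitary was -0.13. Kcnh6, an ERG channel, had 0 counts in all 6 uteri. The Kcnh subfamily, which took 15.9% of the members' TPM in the WT pituitary, was led there by Kcnh2, the ERG1 channel that repolarises heart and endocrine cells. Kcnh2 had 28.5 to 32.6 TPM in KO-labelled and 25.8 to 30.5 TPM in WT pituitaries.

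The pituitary level of Kcnh8, an ELK channel, was far from that of the other tissues. It had 36.4, 45.7 and 35.2 CPM in KO-labelled and 36.6, 40.3 and 48.4 CPM in WT pituitaries. It had 0 counts in all 6 ovary libraries, at most 0.126 CPM in a uterus and 2.74 to 4.46 CPM in the hypothalami. Kcnq5, a subunit of the M current that restrains repetitive firing, was lower in the pituitary, at 0.477 CPM against 18.4, 4.71 and 37.3 CPM in ovary, uterus and hypothalamus (log2 difference -4.79, SE 0.52, adjusted p = 1.99e-06 by edgeR).

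Among inward rectifiers, 10 of the 12 tested were higher in the hypothalamus, against 36.6% of all genes. Kcnj10, the Kir4.1 channel through which astrocytes take up potassium, was the first of the 92 genes there, at 359 ± 102 TPM in KO-labelled and 545 ± 159 TPM in WT libraries (SD, n = 3 each). Its log2 difference from the other tissues in WT was 7.55 (SE 0.23, adjusted p = 7.29e-13). Kcnj9, a GIRK subunit opened by G proteins, lies 11.9 kb from Kcnj10 on chromosome 1 and was also highest in the hypothalamus, at 58.1 CPM in WT. Kcnj6, another GIRK subunit, was instead highest in the pituitary, at 18.5 CPM against 0.148, 0.0655 and 8.55 CPM in WT ovary, uterus and hypothalamus. Kcnj5, the GIRK4 subunit, had 0 counts in all 6 uteri.

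Kcnj8, the Kir6.1 pore of ATP-sensitive channels in vascular and smooth muscle, was the inward rectifier higher in the uterus. It had 50.6, 48.2 and 37.7 CPM in KO-labelled and 37.8, 44.6 and 47.8 CPM in WT uteri, and the WT uteri exceeded the other WT tissues by 2.67 on the log2 scale (SE 0.21, adjusted p = 4.72e-08). Its partner subunit gene Abcc9 lies 16.2 kb away on chromosome 6, and was highest in the WT ovary, at 49.3 CPM against 34.5 CPM in the uterus. The other ATP-sensitive pore gene, Kcnj11, lies 3.76 kb from its partner Abcc8 on chromosome 7; Kcnj11 was at 15.7 CPM in the WT hypothalamus, 7.22 CPM in the pituitary and at most 0.210 CPM in ovary and uterus.

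Tandem-pore genes led the ovary and the uterus. Kcnk3, the acid-sensitive TASK1 channel, was first in the ovary at 171 ± 40.04 TPM in KO-labelled and 124 ± 60.2 TPM in WT libraries, and Kcnk1, the weakly conducting TWIK1, was first in the uterus at 129 ± 30.1 TPM in KO-labelled and 154 ± 17.5 TPM in WT libraries (SD, n = 3 each). Kcnk3 was higher in the WT ovary than in the other WT tissues, with a log2 difference of 2.88 (SE 0.30, adjusted p = 1e-06). Kcnk12, a THIK channel, averaged 8.30 CPM in the WT pituitary and 1.88 CPM in the hypothalamus, and had 0 counts in the WT ovaries. In the pituitary the order of Kcnh2, Kcnk1 and Kcnk2, the stretch-sensitive TREK1, turned with the exon length used, and their means lay within 1 SD of each other in WT.

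Of 13 tested accessory genes, 9 were higher and 2 lower in the WT hypothalamus, 5 and 7 in the pituitary, 4 and 6 in the ovary, and 3 and 9 in the uterus. The shares of all genes for these comparisons are those given above. Kcne4 and Kcne3, small subunits that modify Kcnq1 and other voltage-gated pores, were higher in the uterus. Kcne4 had 20.9, 49.3 and 26.6 CPM in KO-labelled and 35.1, 40.02 and 47.0 CPM in WT uteri, and WT uteri exceeded the other WT tissues by 4.69 (SE 0.25, adjusted p = 5.78e-10). Kcne3 averaged 15.2 ± 5.07 CPM in KO-labelled and 11.2 ± 4.12 CPM in WT uteri, and stayed below 0.25 CPM on average in pituitary and hypothalamus. Kcne2 was higher in the WT ovary by 4.38 (SE 0.56, adjusted p = 7.57e-06). Kcnab3, a beta subunit of Kv1 channels, was second in the ovary at 159.5 ± 37.7 TPM in KO-labelled and 80.8 ± 12.3 TPM in WT libraries. Kcnmb1, the smooth-muscle beta subunit of the large-conductance calcium-activated channel, was higher in the WT uterus by 3.21 (SE 0.20), and Kcnmb2, another beta subunit of that channel, in the WT pituitary by 5.20 (SE 0.28). Kcnmb1 lies inside the span of Kcnip1 on chromosome 11, on the opposite strand. Whether their exons overlap was not tested, and with a kit that does not mark strand reads of shared exon stretches could not be told apart. All 4 Kcnip genes, which encode calcium-binding partners of Kv4 channels, were higher in the hypothalamus, led by Kcnip4 at 139 ± 70.0 TPM in KO-labelled and 209 ± 31.0 TPM in WT libraries.

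**Figure D3:**
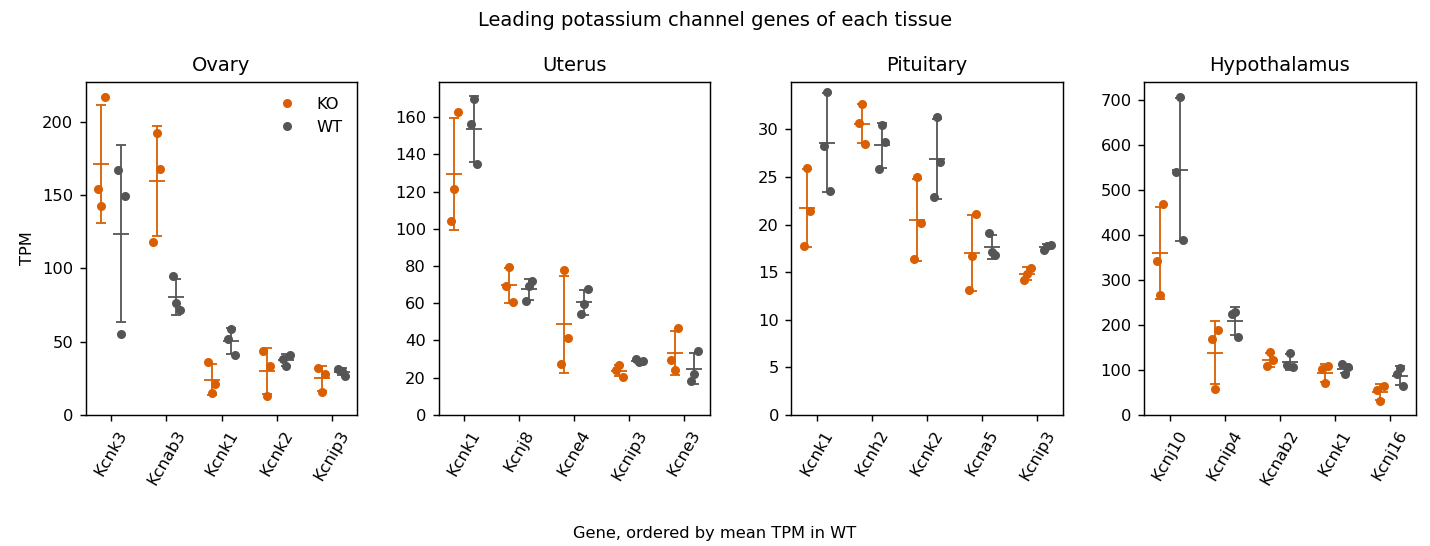
The leading genes of each tissue in TPM, 1 point per library, KO-labelled left of WT, with bars for the mean ± SD. Kcnk3 and Kcnab3 lead the ovary, Kcnk1 the uterus and Kcnj10 the hypothalamus, while the pituitary has no gene above 50 TPM.

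Calcium- and sodium-activated channels were the smallest class, at 2.44 ± 0.141% of the members' TPM in KO-labelled and 2.56 ± 0.126% in WT hypothalami and 5.67 ± 1.81% in KO-labelled and 6.76 ± 0.693% in WT ovaries. Kcnma1, the pore of the large-conductance channel, averaged 67.0 ± 17.6 CPM in KO-labelled and 53.2 ± 8.51 CPM in WT ovaries. The sodium-activated gene Kcnt2 averaged 17.4 ± 7.86 CPM in KO-labelled and 24.04 ± 0.890 CPM in WT ovaries, and at most 1.83 CPM in the WT uterus and pituitary.

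Genes that work with these channels were read beside them. Of 24 tested partners outside the rule (25 listed), 17 were higher and 2 lower in the WT hypothalamus, with a median log2 difference of 3.04. Of 37 tested voltage-gated sodium and calcium channel genes (39 listed), 31 were higher and 2 lower there, with a median of 3.73. Of 20 tested pumps and potassium-coupled carriers (22 listed), 10 were higher and 7 lower, with a median of 0.645. Over all genes 36.6% were higher and 35.3% lower in the WT hypothalamus, with a median of -0.04.

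The comparison of KO-labelled with WT libraries asked whether the channel genes differed with the Kdm4a genotype. In no tissue did 1 of them pass an adjusted p of 0.05 by edgeR's quasi-likelihood test: 0 of 54 tested in the ovary (all genes 0%), 0 of 53 in the uterus (0.349%), 0 of 64 in the pituitary (0.0424%) and 0 of 78 in the hypothalamus (0%). Unadjusted p-values under 0.05 were found for 5, 6, 7 and 7 of them in the same order, or 9.26%, 11.3%, 10.9% and 8.97%, against 7.68%, 12.7%, 12.3% and 6.76% of all genes. DESeq2 called 2 in the uterus (3.6% of all genes) and 0 in ovary (0.429%), pituitary (0.346%) and hypothalamus (0.0541%). The median log2 fold change of the tested members was -0.04 in the ovary, 0.06 in the uterus, 0.11 in the pituitary and -0.09 in the hypothalamus, against 0.03, 0.01, 0.00 and 0.01 over all genes. The 3 KO-labelled values lay wholly above the 3 WT values for 4 of them in the ovary, 5 in the uterus, 10 in the pituitary and 5 in the hypothalamus. They lay wholly below for 2, 7, 1 and 1. Over all genes tested, the shares wholly above were 8.3%, 9.4%, 11.3% and 8.09% in the same order. The shares wholly below were 9.34%, 10.1%, 8.0% and 3.41%. In both directions together, the groups did not overlap for 17.6%, 19.5%, 19.3% and 11.5% of all genes.

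**Figure D4:**
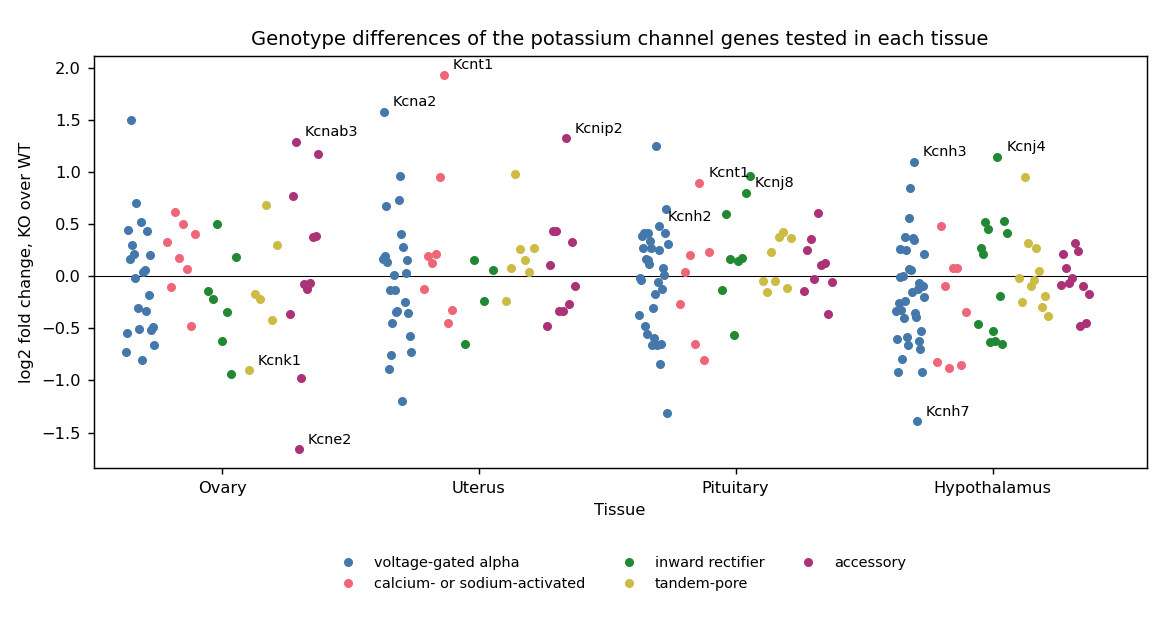
Log2 fold change, KO-labelled over WT, of each tested potassium channel gene in each tissue, coloured by class. The points lie on both sides of 0 in every tissue, and none passed an adjusted p of 0.05 by edgeR.

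In the uterus the smallest p-values belonged to Kcnip2, Kcna2 and Kcnt1. Kcnip2, a Kv4 partner, had 4.61, 3.41 and 2.85 CPM in KO-labelled and 1.41, 1.28 and 1.64 CPM in WT uteri. All 3 KO-labelled values were above all 3 WT values (log2 fold change 1.32, SE 0.30, adjusted p = 0.106 by edgeR and 0.00861 by DESeq2). Kcna2, the Kv1.2 channel whose filter stretch is shown above, had 5.81, 2.93 and 2.89 CPM in KO-labelled and 1.54, 1.52 and 0.768 CPM in WT uteri. Again the groups did not overlap (log2 fold change 1.58, SE 0.40, adjusted p = 0.137 by edgeR and 0.0123 by DESeq2). The authors' deposited table gave adjusted p-values of 0.00954 for Kcnip2 and 0.0123 for Kcna2. Summed neuron markers in the same uteri were 68.4, 69.8 and 70.5 CPM in KO-labelled and 76.8, 85.3 and 103 CPM in WT libraries, with 1 of 5 tested markers positive. Summed pituitary endocrine markers were 19.3, 326 and 107 CPM in KO-labelled and 5.89, 32.6 and 200.2 CPM in WT uteri, with 4 of 4 tested markers positive, and the groups overlapped. The part of either list in the Kcnip2 and Kcna2 values was not tested. KO-labelled uterus library 1, which lies apart, was the highest for both genes.

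In the ovary Kcnab3 had 70.2, 182 and 107 CPM in KO-labelled and 57.7, 45.5 and 43.8 CPM in WT libraries. The groups did not overlap, and KO-labelled library 2, which lies apart, was the highest (log2 fold change 1.29, SE 0.35, adjusted p = 0.597). Kcnk1 had 16.7, 11.2 and 10.6 CPM in KO-labelled and 24.6, 27.3 and 19.6 CPM in WT ovaries, all lower in the KO-labelled ones (log2 fold change -0.90, SE 0.25, adjusted p = 0.597). Kcne2 had 1.01, 3.68 and 1.99 CPM in KO-labelled and 11.9, 2.94 and 6.07 CPM in WT ovaries, which overlapped (log2 fold change -1.66, SE 0.64, adjusted p = 0.597). With each library's length and GC trends removed, the log2 fold changes were 1.03 for Kcnab3, -1.07 for Kcnk1 and -1.915 for Kcne2. Kcnk3 had 127, 188 and 191 CPM in KO-labelled and 141, 45.7 and 127 CPM in WT ovaries, which overlapped. Summed corpus luteum markers ran at 6195, 18646 and 17901 CPM in KO-labelled and 10935, 5476 and 8959 CPM in WT ovaries, with 4 of 5 tested markers positive. Kcnj16, the Kir5.1 partner of Kir4.1, was lowest in the libraries lowest in that sum, at 1.71, 12.9 and 19.7 CPM in KO-labelled and 16.004, 0 and 8.06 CPM in WT ovaries. The part of the luteal markers in these values was not tested.

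In the pituitary Kcnj8 had 14.6, 9.27 and 9.68 CPM in KO-labelled and 5.94, 6.44 and 6.36 CPM in WT libraries, without overlap (log2 fold change 0.80, SE 0.26, adjusted p = 0.294). Summed endothelium markers were 402, 391 and 336 CPM in KO-labelled and 196, 269 and 188 CPM in WT pituitaries, with 6 of 6 positive and 1 called. Mural cell markers summed to 99.62 to 160.8 CPM in KO-labelled and 87.33 to 126 CPM in WT pituitaries, with 4 of 4 positive and 0 called. Smooth muscle markers summed to 30.04 to 55.96 CPM and 30.46 to 48.33 CPM in the same order, with 3 of 5 positive and 0 called. The mural cell and smooth muscle sums overlapped between genotypes, and the part of any of these lists in the Kcnj8 values was not tested. Kcnh2 had 176, 134 and 118 CPM in KO-labelled and 102, 91.1 and 106 CPM in WT pituitaries, also without overlap (log2 fold change 0.48, SE 0.16, adjusted p = 0.302; 0.21 with length and GC trends removed). KO-labelled library 1, which lies apart, was the highest for both genes. In TPM, which uses no TMM factors, the Kcnh2 values of the same libraries overlapped, as given above. The TMM factors were 0.5106, 0.6354 and 0.6345 in KO-labelled and 0.6546, 0.7887 and 0.6681 in WT pituitaries. Summed pituitary endocrine markers were 728500 to 1090000 CPM in KO-labelled and 456300 to 688400 CPM in WT pituitaries, without overlap. Of the 8 tested, 6 were positive and 0 were called. The part of these markers in the TMM factors, and so in the CPM of other genes here, was not tested.

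In the hypothalamus Kcnj4, the Kir2.3 channel of neurons, had 15.2, 12.0 and 8.69 CPM in KO-labelled and 3.21, 5.55 and 6.97 CPM in WT libraries, without overlap (log2 fold change 1.15, SE 0.35, adjusted p = 0.588). Kcnh7, an ERG channel, had 1.403, 1.72 and 3.43 CPM in KO-labelled and 6.13, 7.26 and 3.38 CPM in WT hypothalami, where 1 value of each group crossed (log2 fold change -1.39, SE 0.43, adjusted p = 0.588). Kcnh3, an ELK channel, had 7.02, 6.28 and 4.70 CPM in KO-labelled and 3.43, 1.32 and 3.45 CPM in WT hypothalami, without overlap (log2 fold change 1.10, SE 0.41, adjusted p = 0.588). With each library's trends over transcript length and GC content removed, the log2 fold changes were 0.69 for Kcnj4, -0.45 for Kcnh7 and 0.74 for Kcnh3. Across genes, which are not independent replicates, Spearman's rho between a library's log2 deviation from the tissue mean and transcript length ran from -0.627 to 0.12 in KO-labelled and -0.399 to 0.646 in WT hypothalami. That rho was -0.59 in KO-labelled ovary library 2, -0.402 in KO-labelled uterus library 1 and -0.516 in KO-labelled pituitary library 1. With GC content in place of length, rho ran from -0.225 to 0.722 in KO-labelled and -0.633 to -0.239 in WT hypothalami. The value of 0.722 was that of KO-labelled library 2, which lies apart. In the same 3 libraries of the other tissues the GC rho was 0.248, 0.19 and 0.497. Kcnj10 had 543, 448 and 656 CPM in KO-labelled and 715, 902 and 578 CPM in WT hypothalami, which overlapped. Summed astrocyte markers were 2459, 2098 and 3312 CPM in KO-labelled and 3767, 3886 and 3250 CPM in WT hypothalami. Of the 5 astrocyte markers tested, 2 were positive, 3 were negative and 0 were called. The part of these markers in the Kcnj10 values was not tested.

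**Figure D5:**
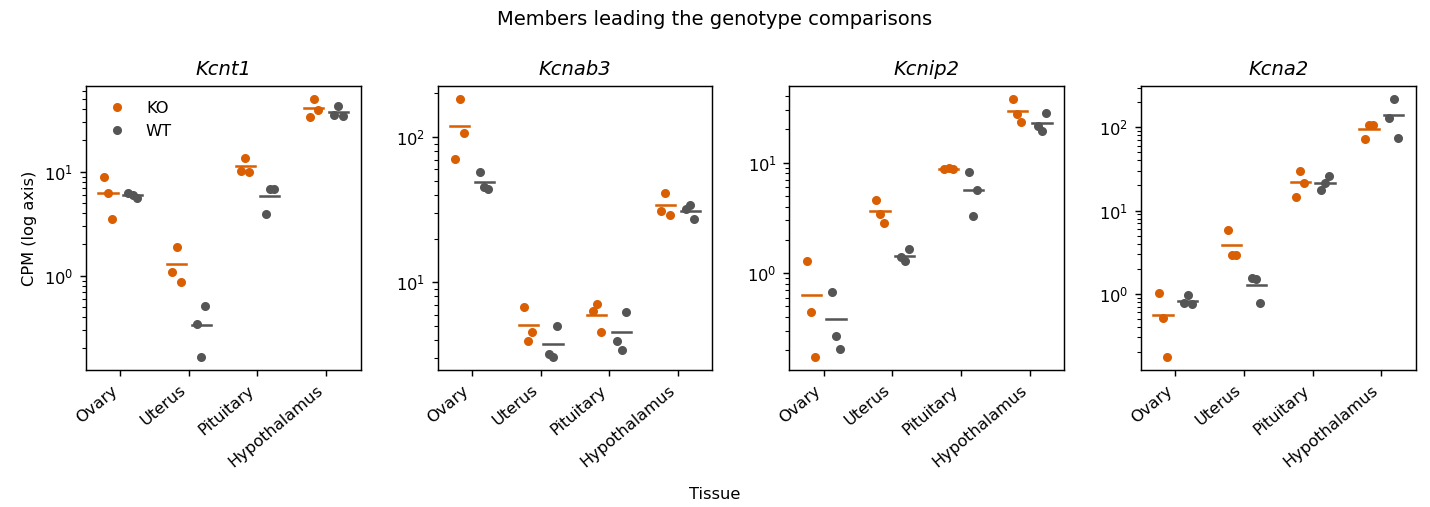
CPM per library on a log axis of Kcnt1, Kcnab3, Kcnip2 and Kcna2, KO-labelled left of WT in each tissue, with a line at each mean. Kcnt1 in the uterus lies at 0.880 to 1.90 CPM in KO-labelled and 0.165 to 0.512 CPM in WT libraries, and in the hypothalamus the groups overlap.

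With the genotype difference averaged over the 4 tissues, Kcnt1, the sodium-activated Slack channel, was the gene called among 85 tested, against 1.11% of all genes; by direction 1 member was higher (0.778% of all genes) and 0 were lower (0.33%). It had 25, 48 and 21 counts in KO-labelled and 8, 4 and 10 counts in WT uteri, or 1.08, 1.90 and 0.880 CPM against 0.342, 0.165 and 0.512 CPM. In the pituitary it had 10.3, 13.7 and 9.91 CPM in KO-labelled and 3.96, 6.88 and 6.86 CPM in WT libraries. Both tissues showed no overlap in TMM-scaled CPM, while in the ovary (8.96, 6.28 and 3.50 CPM in KO-labelled, 6.26, 5.92 and 5.58 CPM in WT) and the hypothalamus (33.3, 49.9 and 39.3 CPM in KO-labelled, 35.4, 42.7 and 34.1 CPM in WT) the groups overlapped. Without the TMM factors, 0.5106 in KO-labelled pituitary library 1 and 0.7887 in WT pituitary library 2, the former falls below the latter. The pituitary groups then overlap. The averaged log2 fold change was 0.77 (SE 0.18, adjusted p = 0.0376 by edgeR). By tissue the log2 fold change was 1.93 in the uterus, 0.90 in the pituitary, 0.07 in the ovary and 0.08 in the hypothalamus. The call was lost in 14 of the 24 fits that left out 1 library, at adjusted p-values of 0.0529 to 0.0805, and without the 4 KO-labelled libraries that lie apart, at 0.147, an alternative chosen after seeing the data. Kcnab3 (0.56, SE 0.15, adjusted p = 0.0669) and Kcnip2 (0.78, SE 0.23, adjusted p = 0.0787) followed. DESeq2 called 6 (7.69% of all genes): Kcnt1, Kcnab3, Kcnip2 and Kcnab2 higher, Kcnt2 and Kcnk1 lower. In the edgeR fit with length and GC trends removed, the averaged log2 fold change was 0.84 for Kcnt1 (adjusted p = 0.0387), 0.36 for Kcnab3 (0.212), 0.22 for Kcnab2 (0.234) and -0.30 for Kcnt2 (0.336); for the last 2 it was 0.36 and -0.62 without that step. No member had a genotype difference that varied with tissue at an adjusted p of 0.05 (0 of 85 by edgeR, all genes 0.053%; 0 by DESeq2, all genes 0.99%), and 10 of the 85 had an unadjusted p under 0.05, against 7.37% of all genes. Kcnd2, a Kv4 pore gene, had the smallest p there (0.00555 by edgeR, adjusted p = 0.453), with 45.8, 33.9 and 59.9 CPM in KO-labelled and 28.9, 21.1 and 35.2 CPM in WT ovaries and 29.95, 40.05 and 30.7 CPM in KO-labelled and 65.5, 34.1 and 56.7 CPM in WT pituitaries. For Kcnt1 the p of the same edgeR test was 0.00731 (adjusted p = 0.463). Among the companion lists, 0 partners and 0 pumps or carriers were called between genotypes in any tissue or in the averaged effect by edgeR. Of the sodium and calcium channel genes, Scn7a was called lower in the pituitary (1 of 35 tested, against 0.0424% of all genes in either direction). It was named after its values were seen. In the averaged effect 3 of 38 of these genes were called higher, against 0.778% of all genes.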

How the data were processed

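Poly-A RNA of whole tissues was sequenced from a kit that does not mark strand. Per the submitters' processing notes the tools were FastQC, Trimmomatic, STAR, HTSeq and DESeq2 on mm10; neither versions nor the counting annotation are stated there. The authors deposited raw counts per gene, and separate tables with their log2 fold change and p-values, which are quoted only where named. Of 24222 entries, 27 held dates in place of symbols (0.122 to 0.392% of counts) and were left out. Library totals were 13201596 to 23865382 counts. From the deposited counts, TMM-scaled CPM were computed, and TPM without TMM factors (exon lengths of GENCODE M21, GRCm38). Tests were edgeR 4.0.16 quasi-likelihood fits in R 4.3.3 on all genes passing its expression filter, with Benjamini-Hochberg adjustment at 0.05 over all genes tested: KO-labelled against WT in each tissue, the 4 WT tissues, the genotype effect averaged over tissues, and the interaction. DESeq2 1.42.0, limma 3.58.1 (voom), other scalings, removal of each library's length and GC trends, a replicate block and leaving out each library were alternatives. The genes named were drawn from the 3 with the smallest p-values in each genotype comparison and every one called there, the leading genes per length in each WT tissue and of each subfamily, the largest called tissue differences in both directions, and members within 100 kb of each other with Abcc8 and Abcc9, not all of which are printed; the remaining ones illustrate a class and were chosen after their values were seen. The members and lists were chosen with earlier results of these data known. The fits were tested on simulated data. Labels call the libraries biological replicates. Of the 92 genes, 1 is counted in the totals and not reported by itself here.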

Additional observations from a re-analysis of the deposited data

How the results depend on the processing

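In the uterus DESeq2 called 2 genes between genotypes where edgeR called 0. For the pituitary against the other WT tissues, library totals without scaling turned the split to 24 higher and 31 lower, and the members' median to -0.42. The genotype effect averaged over tissues, with 1 gene called, gave 0 without scaling, 0 with limma-voom, 6 with DESeq2, 0 without the 4 KO-labelled libraries that lie apart (chosen after seeing the data), and 0 to 5 when 1 library was left out. Without those 4 libraries DESeq2 called 1 gene, Kcnj9, for the interaction. The share of all genes called in that fit is not given, so this call cannot be set against a background. With all 24 libraries the adjusted p of Kcnj9 for the interaction was 0.173 by DESeq2 and 0.676 by edgeR. Kcnj9 averaged 0.163 CPM in the WT ovary and 0.226 CPM in the WT uterus. The cause was not tested. With the replicate number as a block the averaged effect gave 0 genes. Same-numbered KO-labelled and WT libraries of the same tissue correlated at -0.297 to 0.246. Whether a number marks the same female across tissues was not tested, and the fits over several tissues treat all libraries as independent. Leaving out 1 library kept the genotype counts within each tissue at 0, and the WT counts at 16 to 18 higher and 37 to 43 lower in the ovary, 17 to 19 and 40 to 47 in the uterus, 34 to 40 and 13 to 20 in the pituitary, and 60 to 63 and 8 to 9 in the hypothalamus. Low counts limit Kcnt1 in the uterus, and 3 libraries per group limit every genotype comparison.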
